A study of Mus musculus with 18 samples.

Results

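The effect of Hrs knockdown was measured across all genes in 10 tumours of B16F10, a mouse melanoma line that the labels give as C57BL/6J. Of the 18 libraries of the series, 5 came from tumours of cells with an shRNA against Hgs, the gene of Hrs (shHrs), and 5 from tumours of cells with a scrambled shRNA (shCTL). The other 8 libraries came from cultures of the same cells, 4 with shHrs and 4 with shCTL in 2 batches, and were used only to compare the size of the effect. Groups were taken from the treatment named in each library's labels. Cells of both groups had been infected with lentivirus carrying pLKO.1 vectors and selected with an antibiotic before use. The hosts were wild-type female C57BL/6 mice of 6 to 8 weeks with an intact immune system. How many shRNAs were used, whether the cells passed through a single clone, how old the tumours were and whether each came from its own mouse were not stated in the labels. The labels call the tumours biological repeats, so the p-values measure the spread between these tumours. The series' title names immune evasion, protein homeostasis and the interferon pathway as its subject.

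Hrs sits on the outer face of endosomes. With its partners Stam and Stam2 it forms ESCRT-0, which binds ubiquitin on internalised receptors and hands them to ESCRT-I, -II and -III for packing into vesicles inside the endosome. Fusion of such multivesicular endosomes with lysosomes degrades the cargo, and fusion with the cell surface releases the vesicles as exosomes. The shRNA acts in the melanoma cells, while the host's leukocytes, vessels, connective tissue and muscle in a tumour piece carry intact Hgs.

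Total counts were 18.8 to 27.7 M (mega) in shHrs tumours and 17.6 to 22.05 M in shCTL tumours. Values are given as CPM, each gene's count as a share of the library's total, on library sizes scaled by the trimmed mean of M-values. Each fold change is a log2 ratio of shHrs over shCTL tumours from edgeR's quasi-likelihood test, with its standard error (SE) and a p adjusted by Benjamini-Hochberg over all 13215 genes tested. Genes with an adjusted p below 0.05 were called. Melanoma markers were high in every tumour, with a summed level of 31060 to 41501 CPM in shHrs tumours and 28923 to 35980 CPM in shCTL tumours over 22 tested markers. Among them, Sox10, a transcription factor of the melanocyte lineage, stood at 682 to 793 CPM in shHrs tumours and 628 to 777 CPM in shCTL tumours. A library stood apart, shHrs tumour 4, which had the highest levels of Xist, of the leukocyte gene Ptprc and of macrophage and muscle markers of the 10 tumours. Results that rest on it are given with and without it.

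Hgs lies on the plus strand of chromosome 11 from position 120467635 of GRCm38 (the build mm10). It stood at 23.6, 16.9, 20.9, 29.6 and 15.9 CPM in shHrs tumours 1 to 5, against 106, 97.3, 111, 108 and 96.0 CPM in shCTL tumours 1 to 5. The groups were far apart, and the highest of the shHrs tumours was replicate 4, which also had the most Xist of the 10 tumours. Of the 13 tested genes of ESCRT-0 and its adaptors Hgs was the only one called, with a log2 fold change of -2.28 (SE 0.16, adjusted p = 0.000106 by edgeR). Stam stood at 59.3, 57.5, 68.3, 38.1 and 73.2 CPM in shHrs tumours, against 61.7, 50.9, 53.6, 59.8 and 51.4 CPM in shCTL tumours. Stam2 averaged 87.5 ± 16.6 CPM in shHrs tumours and 87.1 ± 6.99 CPM in shCTL tumours (SD, n = 5 each). For both partners the values overlapped, with log2 fold changes of 0.10 (SE 0.15) for Stam and 0.01 (SE 0.13) for Stam2. Of the 26 tested genes of ESCRT-I, -II and -III and Vps4, which pulls the assembled complex apart, 0 were called, 2 had an unadjusted p below 0.05, and the median log2 fold change was -0.01. Tsg101 of ESCRT-I had a log2 fold change of -0.05 (SE 0.07) and Vps4a one of -0.04 (SE 0.07).

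Over all genes, 31 were higher with shHrs (0.235% of those tested) and 41 were lower (0.31%), a total of 72 (0.545%). In each of the 72 genes the 5 shHrs and the 5 shCTL values did not overlap, which was true of 1.91% of all tested genes upward and 2.61% downward. At an unadjusted p below 0.05 there were 920 genes higher (6.96%) and 948 lower (7.17%). Most changes were small. Among the raised genes, 22 had a log2 fold change under 1, with a median of 0.84, and among the lowered genes 32 lay above -1, with a median of -0.69. The count moved with single tumours. It was 37, 40 and 158 without shHrs tumours 1, 2 and 4, and 43, 32 and 43 without shCTL tumours 1, 3 and 5. DESeq2 called 521 genes on the same counts, and edgeR called 29 when the tumours shared 1 fit with the cultures. All 72 genes kept their sign whichever tumour was left out, which the lack of overlap between the groups made nearly certain. Of them, 28 were called in each of those 10 fits, 12 raised and 16 lowered.

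**Figure D1:**
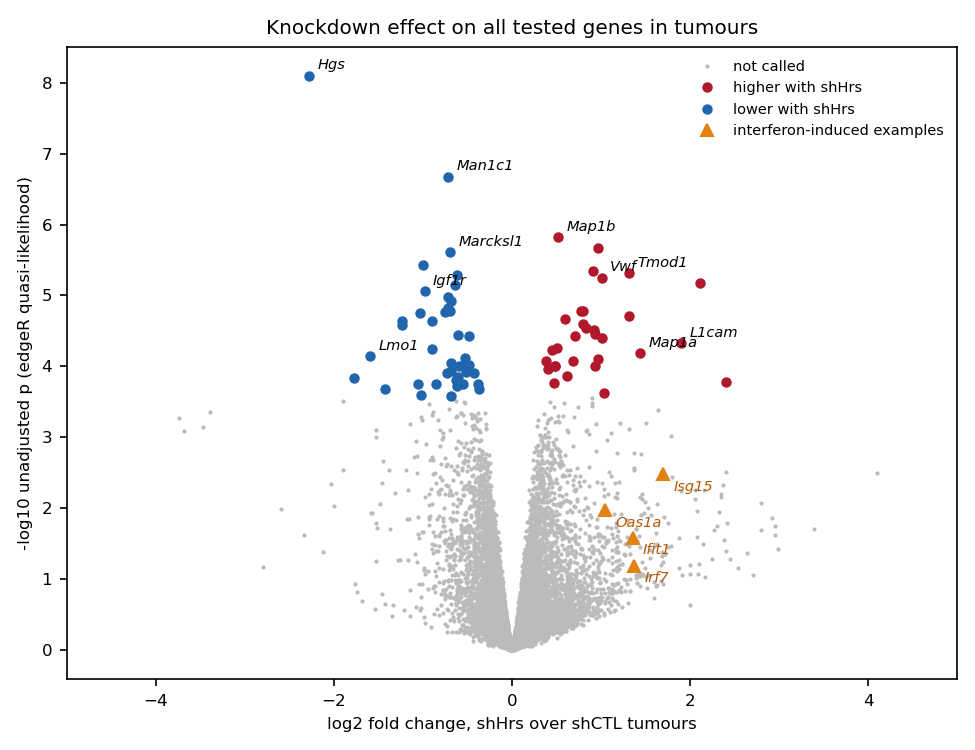
Log2 fold change of shHrs over shCTL tumours (x axis) against -log10 of the unadjusted p by edgeR (y axis) for 13215 genes, with the 31 called genes that were higher in red, the 41 that were lower in blue and 4 interferon-induced genes as orange triangles. Hgs stands alone at the top left, and the interferon-induced genes have fold changes as large as the called ones but larger p-values.

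The raised genes named by size of change included an adhesion molecule of neurons and binders of microtubules and actin, while other actin regulators fell, and no list of cytoskeletal genes was tested. L1cam (chromosome X, 73853778 to 73896105), an adhesion molecule first known from growing axons, stood at 18.2, 13.9, 14.0, 15.0 and 14.2 CPM in shHrs tumours 1 to 5, against 3.80, 2.27, 5.07, 2.05 and 6.99 CPM in shCTL tumours 1 to 5. Every shHrs tumour lay far above the highest shCTL tumour, and the log2 fold change was 1.90 (SE 0.30, adjusted p = 0.0178 by edgeR). Map1a, which binds and stabilises microtubules, stood at 11.6, 12.4, 20.9, 16.5 and 20.1 CPM in shHrs tumours, against 4.18, 4.64, 5.83, 6.50 and 8.87 CPM in shCTL tumours. Both groups spread about evenly without meeting, and the log2 fold change was 1.44 (SE 0.24, adjusted p = 0.0222 by edgeR). Its relative Map1b was measured far more tightly, at 99.2, 101, 97.1, 103 and 108 CPM in shHrs tumours, against 67.8, 70.3, 72.7, 72.0 and 72.6 CPM in shCTL tumours. With a log2 fold change of only 0.52 (SE 0.06) it had the smallest p of the raised genes (adjusted p = 0.00645 by edgeR). Tmod1 (chromosome 4, 46038935 to 46116032), which caps the slow-growing end of actin filaments, stood at 24.0, 32.8, 32.1, 29.5 and 42.8 CPM in shHrs tumours, against 14.2, 14.7, 10.8, 10.3 and 14.9 CPM in shCTL tumours. Its log2 fold change was 1.31 (SE 0.16, adjusted p = 0.00739 by edgeR).

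Among other binders of the cytoskeleton, the actin regulators Marcksl1 and Twf1 fell by 0.69 (SE 0.08) and 0.63 (SE 0.08), and several genes rose. Mapre3, a protein of growing microtubule ends, rose by 0.96 (SE 0.11), Map6, which protects microtubules from cold, by 0.94 (SE 0.14), and the beta-tubulin gene Tubb2a, whose reads may be shared with its near-identical neighbour Tubb2b, by 1.01 (SE 0.16). Vim, the intermediate filament of mesenchymal cells, was the most abundant raised gene among those named here, at 2412 ± 71.8 CPM in shHrs tumours and 1728 ± 159.7 CPM in shCTL tumours (SD, n = 5 each). The actin-binding genes Phactr1 and Pfn2 rose by 0.80 (SE 0.12) and 0.48 (SE 0.09). Of 34 tested genes of axon growth and guidance, 1 rose, L1cam, and 1 fell, Ephb4, a receptor for membrane-bound ephrins, with a log2 fold change of -0.70 (SE 0.10, adjusted p = 0.0113 by edgeR). The median of that list was 0.12, against 0.01 over all genes tested. The calls for Tmod1, Map1b, Mapre3 and Ephb4 held whichever tumour was left out, whereas that for L1cam was lost without shHrs tumour 1 or shCTL tumour 1. That for Map1a was lost without shHrs tumour 3 or shCTL tumour 1, 2 or 3. The calls for Vim and Pfn2 held in 2 of the 10 fits each. Map1b, Vim, Phactr1, Pfn2, Marcksl1 and Twf1 lay outside the rule for named genes and were picked after their values were seen.

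**Figure D2:**
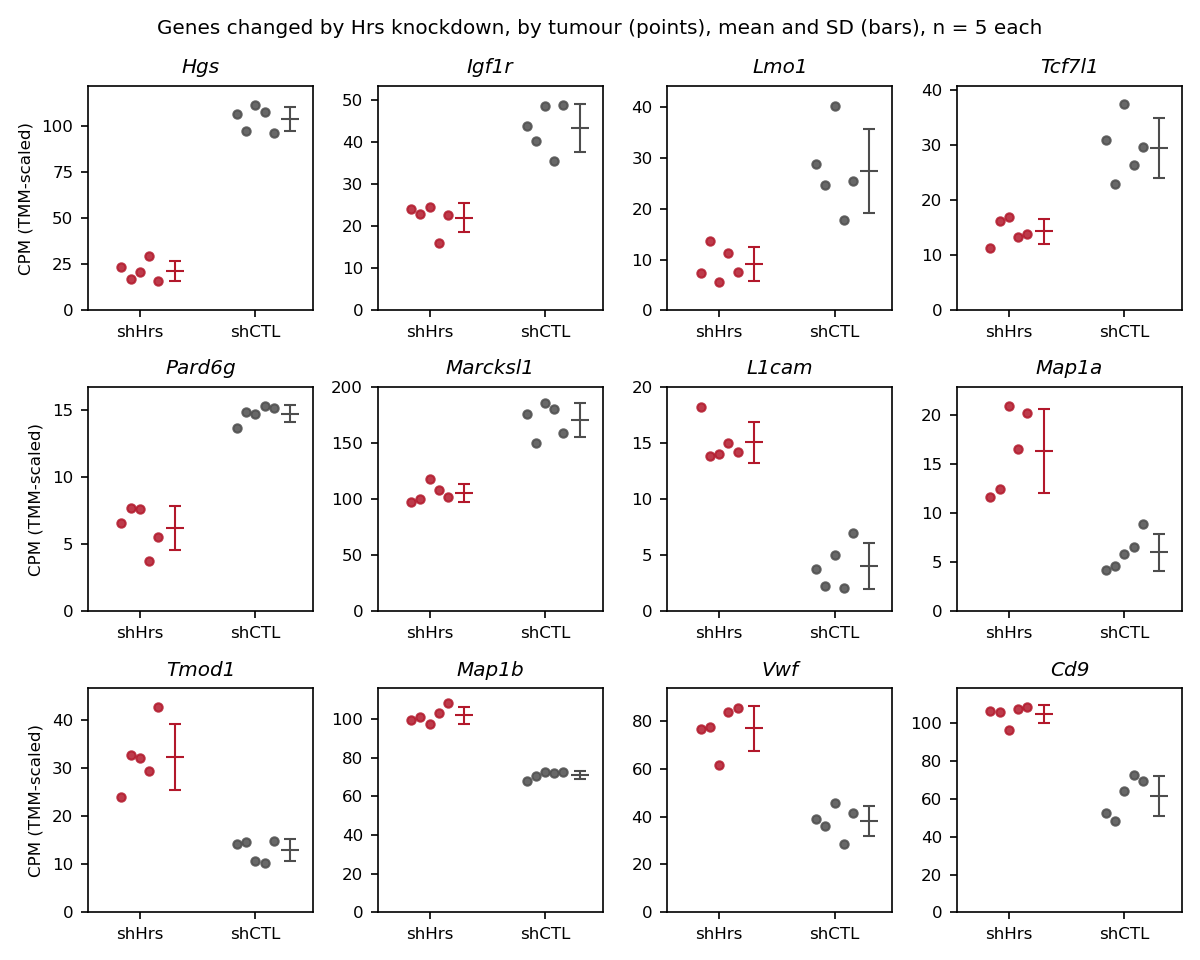
Level in CPM (y axis, from 0) of 12 called genes in each of the 5 shHrs (red, left) and 5 shCTL tumours (grey, right), with the mean and SD as bars. In every panel the groups are apart, and Hgs, Igf1r, Lmo1, Tcf7l1, Pard6g and Marcksl1 are lower in shHrs tumours while the other 6 genes are higher.

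Among the raised genes were also Vwf, of a secreted protein, Cd9, of a membrane protein, and S100b. Other genes of secreted or membrane proteins fell, such as Igf1r, Ephb4 and Efemp2, and no list of that class was tested. Vwf, the clotting factor that endothelial cells and platelets store, stood at 76.7, 77.4, 61.3, 83.5 and 85.3 CPM in shHrs tumours 1 to 5, against 39.0, 36.0, 45.7, 28.7 and 41.5 CPM in shCTL tumours 1 to 5. The groups were well apart, with a log2 fold change of 1.01 (SE 0.13, adjusted p = 0.00739 by edgeR). In cultures the effect on Vwf was 1.19 (adjusted p = 0.0322 by edgeR), at 1.98 in batch 1 and 0.39 in batch 2. Levels there were low, at 8.65 ± 7.44 CPM with shHrs and 2.16 ± 0.717 CPM with shCTL in batch 1. In batch 2 they were 1.38 ± 0.354 CPM with shHrs and 1.03 ± 0.366 CPM with shCTL (SD, n = 2 each). Vwf was the only one of 21 tested endothelial markers called in tumours. The median of that list was 0.01, and the endothelial adhesion molecule Pecam1 stood at 25.2 to 47.1 CPM in shHrs tumours and 28.2 to 43.0 CPM in shCTL tumours. Cd9, a tetraspanin abundant on exosomes, stood at 106, 106, 96.4, 107 and 109 CPM in shHrs tumours, against 52.7, 48.3, 64.2, 72.3 and 69.5 CPM in shCTL tumours. The shHrs tumours were close to each other, and the log2 fold change was 0.77 (SE 0.11, adjusted p = 0.0113 by edgeR). Of 16 tested genes of exosome tetraspanins and secretion Cd9 was the only one called. The others included the tetraspanins Cd63, at a log2 fold change of 0.24, and Cd81, at -0.09, and the median was 0.07. S100b, a calcium-binding protein of melanoma and Schwann cells, averaged 195 ± 34.3 CPM in shHrs tumours and 109 ± 9.39 CPM in shCTL tumours (SD, n = 5 each), with a log2 fold change of 0.84 (SE 0.13, adjusted p = 0.0134 by edgeR).

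The other raised genes of largest fold change had varied roles. Adamtsl5, a matrix-bound relative of the ADAMTS proteases, rose by 1.32 (SE 0.19), Plekhb1 by 1.03 (SE 0.20), Cpeb1, a regulator of messenger polyadenylation, by 0.97 (SE 0.16), Ndrg4 by 0.94 (SE 0.16) and the cyclic AMP phosphodiesterase Pde8a by 0.92 (SE 0.14). Outside the rule for named genes, St3gal1, which adds sialic acid to glycans, rose by 0.91 (SE 0.11) and Atp11a, a lipid flippase of the cell membrane, by 0.71 (SE 0.11). Sema3b, a secreted semaphorin, rose by 0.69 (SE 0.12) and P2rx4, an ion channel opened by ATP, by 0.51 (SE 0.08). Ndst3, which modifies heparan sulfate, stood at 2.62 to 4.86 CPM in shHrs tumours and 0.577 to 1.04 CPM in shCTL tumours, with a log2 fold change of 2.11 (SE 0.27). Of the genes in this paragraph, the calls for Adamtsl5, Pde8a, St3gal1 and Ndst3 held whichever tumour was left out. Those for Plekhb1, Sema3b, Ndrg4 and Cpeb1 held in 1, 2, 3 and 5 of the 10 fits, and those for Atp11a and P2rx4 were lost without shHrs tumour 1 or shCTL tumour 3.

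Among the lowered genes were a growth factor receptor that endosomes sort, regulators of transcription and genes of cell polarity and membrane traffic. Igf1r (chromosome 7, 67952827 to 68233668), the receptor for insulin-like growth factors, stood at 24.0, 22.8, 24.5, 15.95 and 22.7 CPM in shHrs tumours 1 to 5, against 43.8, 40.1, 48.6, 35.4 and 48.8 CPM in shCTL tumours 1 to 5. Replicate 4 was the lowest of both groups, and the log2 fold change was -0.98 (SE 0.13, adjusted p = 0.00877 by edgeR). Igf1r was the only gene called among 19 tested growth factor and cytokine receptors of the endosomal route, whose median was 0.01. Ifngr2, a chain of the interferon gamma receptor, had a log2 fold change of -0.29 (adjusted p = 0.069 by edgeR) and was called without shHrs tumour 4, at -0.31 (adjusted p = 0.0383). Erbb2 had -0.28 and Tgfbr2 0.34, and neither was called.

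Lmo1 (chromosome 7, 109138572 to 109175207), a LIM-domain partner of transcription factors, stood at 7.31, 13.7, 5.64, 11.3 and 7.52 CPM in shHrs tumours 1 to 5, against 28.9, 24.7, 40.3, 17.8 and 25.4 CPM in shCTL tumours 1 to 5. The groups kept apart although each spread widely, with a log2 fold change of -1.59 (SE 0.27, adjusted p = 0.0236 by edgeR). Tcf7l1, a DNA-binding effector of Wnt signalling, averaged 14.4 ± 2.26 CPM in shHrs tumours and 29.5 ± 5.47 CPM in shCTL tumours (SD, n = 5 each). Its log2 fold change was -1.03 (SE 0.15, adjusted p = 0.0113 by edgeR). Pard6g, of the Par polarity complex, stood at 6.60, 7.71, 7.60, 3.73 and 5.55 CPM in shHrs tumours, against 13.7, 14.8, 14.7, 15.3 and 15.1 CPM in shCTL tumours. The shCTL tumours were nearly level, and the log2 fold change was -1.24 (SE 0.18, adjusted p = 0.0123 by edgeR). Man1c1, a mannosidase of the Golgi, was picked after its values were seen because it had the smallest p after Hgs. It stood at 24.0, 23.4, 23.5, 23.4 and 22.8 CPM in shHrs tumours, against 37.4, 36.6, 37.0, 41.1 and 40.0 CPM in shCTL tumours, with a log2 fold change of -0.71 (SE 0.07, adjusted p = 0.00139 by edgeR).

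The other lowered genes of largest fold change were Unc13b, which primes vesicles for release (-1.23, SE 0.18), the sialomucin Podxl2 (-1.05, SE 0.19), Efemp2 of elastic fibres (-1.02, SE 0.20) and Adck3, a kinase-like protein of coenzyme Q synthesis, which averaged 38.9 ± 6.90 CPM in shHrs tumours and 77.6 ± 6.80 CPM in shCTL tumours (SD, n = 5 each). Tph2, of serotonin synthesis, and the redox protein Nxn both fell by 0.90 (SE 0.13 and 0.15), and Chd7, a chromatin remodeller, fell by 0.85 (SE 0.16). Nfe2l2, the transcription factor Nrf2 of the oxidative stress response, averaged 75.3 ± 9.90 CPM in shHrs tumours and 108 ± 3.19 CPM in shCTL tumours (SD, n = 5 each). It fell by 0.52 on the log2 scale (SE 0.09, adjusted p = 0.0259 by edgeR). Of the 20 tested genes of the Nrf2 response none but Nfe2l2 itself was called, and the median was -0.10. Picked after their values were seen, the nuclear lamin Lmnb1 fell by 0.72 (SE 0.10) and Tead2, a DNA-binding factor of the Hippo pathway, by 0.68 (SE 0.12). Calls for Igf1r, Pard6g, Tcf7l1, Unc13b, Adck3, Tph2 and Man1c1 held whichever tumour was left out. The call for Lmo1 was lost without shHrs tumour 1 or 5 or shCTL tumour 1, 3 or 5, and those for Chd7, Podxl2 and Efemp2 held in 2 of the 10 fits each. Those for Nfe2l2, Tead2 and Nxn held in 3, 5 and 6 fits.

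Genes that type I interferon induces had higher fitted levels in shHrs tumours throughout, although none of them was called. Interferons bind receptors on the cell surface, and a complex that includes Irf9 then binds an interferon response element in the promoters of antiviral genes. The promoters of 3 such genes are shown as RefSeq gives them on GRCm38.p6, each as a short window around the element, because they are classical members of this response. The windows are chr4:156200862-156200921 on the minus strand for Isg15, chr5:120907511-120907570 on the minus strand for Oas1a and chr19:34640760-34640819 on the plus strand for Ifit1. Capitals mark the first match to the core of that element, taken as GAAA, any 2 bases and GAAA, which in Ifit1 lies on the opposite strand.
Isg15: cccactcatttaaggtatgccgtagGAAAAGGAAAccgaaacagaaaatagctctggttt
Oas1a: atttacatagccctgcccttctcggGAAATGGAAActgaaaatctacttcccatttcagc
Ifit1: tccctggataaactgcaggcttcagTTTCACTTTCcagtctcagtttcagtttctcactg
Promoters from 250 bases before to 50 bases after the start, searched on both strands, held this motif in 14 of the 30 listed interferon genes that had a promoter in the table (46.7%) and in 372 of 9812 tested genes with one (3.79%). A match describes the letters and does not show that a factor binds there.

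Isg15, a ubiquitin-like protein joined to other proteins, stood at 33.9, 37.0, 33.2, 81.3 and 16.4 CPM in shHrs tumours 1 to 5, against 10.1, 19.1, 3.32, 13.4 and 16.2 CPM in shCTL tumours 1 to 5. The groups met where shHrs tumour 5 lay below shCTL tumour 2, and the log2 fold change was 1.70 (SE 0.46, adjusted p = 0.127 by edgeR). Ifit1, which binds viral RNA, stood at 45.6, 36.4, 34.2, 66.0 and 24.8 CPM in shHrs tumours, against 10.6, 34.9, 1.75, 17.2 and 16.2 CPM in shCTL tumours. Its log2 fold change was 1.36 (SE 0.53, adjusted p = 0.273 by edgeR), with shCTL tumour 2 at the level of the shHrs tumours. Oas1a is an activator of RNase L whose reads may be shared with near-identical copies. It averaged 36.1 ± 10.8 CPM in shHrs tumours and 17.5 ± 8.35 CPM in shCTL tumours (SD, n = 5 each), with a log2 fold change of 1.04 (SE 0.34, adjusted p = 0.19 by edgeR). Irf7, a transcription factor that amplifies the response, had a log2 fold change of 1.37 (SE 0.67). In shHrs tumour 4 it reached 98.9 CPM, against 12.3 to 28.0 CPM in the other shHrs tumours.

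Of 44 tested genes induced by type I interferon, 44 had a positive log2 fold change, where 51.5% of all tested genes did, and the median was 0.90. None was called, 22 passed an unadjusted p of 0.05 upward (6.96% of all genes did), and in 0 of the 44 were the groups apart. The mean log2 CPM of the list was 4.91, 4.74, 4.32, 5.70 and 4.16 in shHrs tumours 1 to 5, against 3.52, 4.72, 1.88, 3.77 and 4.30 in shCTL tumours 1 to 5. ShHrs tumour 4 was the highest and shCTL tumour 3 the lowest of the 10, and shCTL tumours 2 and 5 lay among the shHrs tumours. Without shHrs tumour 4, 42 of 44 were positive and the median was 0.60, with 12 at an unadjusted p below 0.05. In that fit 2282 of 13291 genes had such a p, in either direction. The interferon genes themselves were hardly read. Ifnb1, of interferon beta, gave 10 counts in the shHrs tumours together and 2 in the shCTL tumours together. Ifng gave 18 counts in the shHrs tumours, 14 of them in replicate 4, and 4 in the shCTL tumours, and neither gene was tested.

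**Figure D3:**
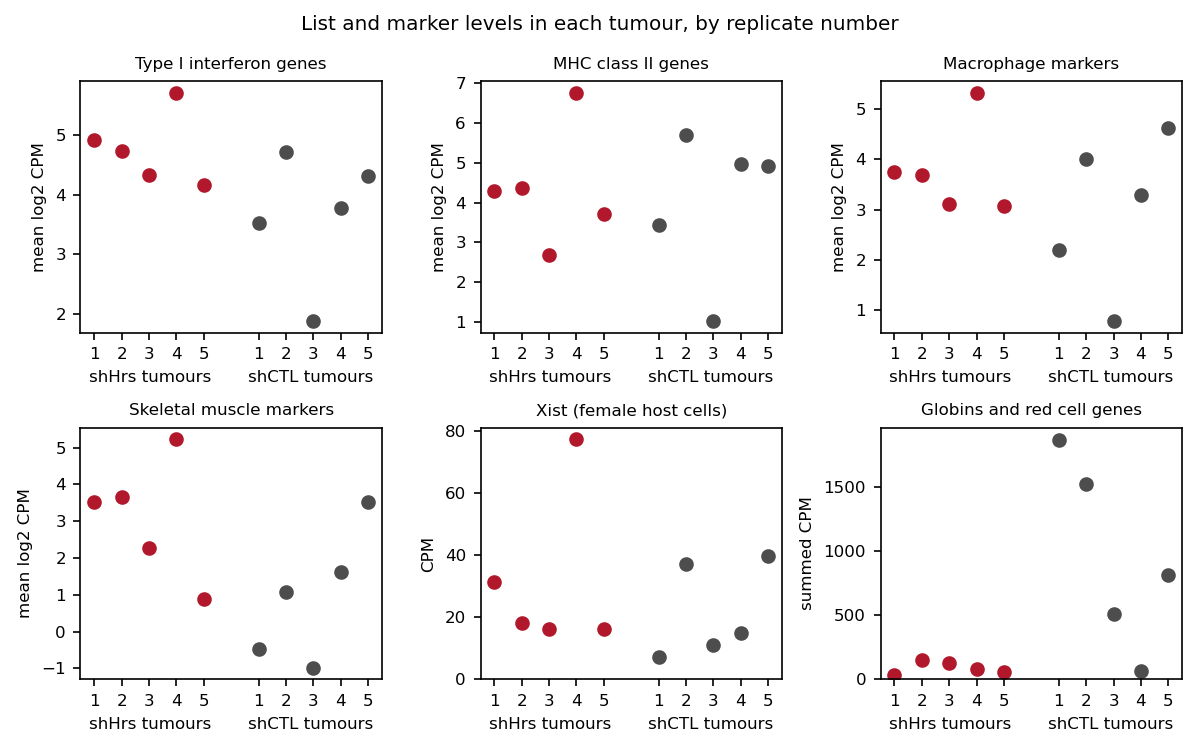
Levels in each of the 5 shHrs (red, left) and 5 shCTL tumours (grey, right) by replicate number, as mean log2 CPM for type I interferon, MHC class II, macrophage and muscle lists and as CPM for Xist and the summed red cell genes. ShHrs tumour 4 is highest in all panels but the last, where 4 of the 5 shCTL tumours stand above every shHrs tumour.

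Genes of the interferon gamma response, antigen presentation and chemokines also had positive medians, which were lower without shHrs tumour 4. The median log2 fold change was 0.57 over 25 genes induced by interferon gamma and 0.08 without that tumour. It was 0.40 over 15 genes of MHC class I presentation and -0.03 without it. For 8 genes of MHC class II presentation it was 0.48 and -0.87 without it, for 6 immunoproteasome genes 0.33 and -0.20, and for 19 chemokines 0.61 and -0.05. With shCTL tumour 5 also left out, the chemokine median was 0.49, with 16 of 18 genes positive, and those of the interferon gamma, MHC class I, MHC class II and immunoproteasome lists were 0.03, -0.002, -0.82 and -0.23. In these lists 0 genes were called, with or without that tumour. B2m, the light chain of MHC class I, stood at 689.6 to 2820.5 CPM in shHrs tumours and 242 to 1693 CPM in shCTL tumours, with a log2 fold change of 0.50 (SE 0.46). The heavy chains H2-K1 and H2-D1, whose reads may be shared with near-identical relatives, had 0.17 (SE 0.41) and 0.54 (SE 0.49). Cxcl10, a chemokine that draws T cells, stood at 113, 90.0, 97.8, 205 and 104 CPM in shHrs tumours, against 77.0, 77.5, 35.2, 89.9 and 66.5 CPM in shCTL tumours. The groups only just did not overlap, and the log2 fold change of 0.82 (SE 0.27) was not called (adjusted p = 0.19 by edgeR). Ccl5 had 1.17 (SE 0.51), Cxcl9 0.22 (SE 0.77) and Cd274, which encodes the checkpoint ligand PD-L1, 0.49 (SE 0.39).

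Markers of host leukocytes overlapped between the groups and had positive medians that turned negative without shHrs tumour 4. Ptprc, the pan-leukocyte gene, stood at 9.21, 7.66, 5.39, 31.0 and 6.15 CPM in shHrs tumours 1 to 5, against 2.16, 10.6, 0.525, 8.10 and 11.2 CPM in shCTL tumours 1 to 5. The groups overlapped (log2 fold change 0.87, SE 0.70, adjusted p = 0.644 by edgeR). The median of 12 leukocyte markers was 0.68 and -0.10 without shHrs tumour 4, that of 28 macrophage markers 0.58 and -0.11, and that of 11 T cell markers 0.58 and -0.22. With shCTL tumour 5 also left out, the medians were 0.12 for leukocytes (9 of 12 positive), 0.35 for macrophages (25 of 28 positive) and -0.07 for T cells (4 of 9 positive). Summed over the list, macrophage markers stood at 1098 to 3168 CPM in shHrs tumours and 979 to 2055 CPM in shCTL tumours. T cell genes were few, with Cd3e at 0.196 to 3.48 CPM in shHrs tumours and 0.0583 to 0.817 CPM in shCTL tumours. Cd8a, of killer T cells, gave 123 counts in shHrs tumours, 97 of them in replicate 4, and 63 in shCTL tumours, too few to be tested. In bulk tumours fewer cells of a type and less RNA per cell cannot be told apart.

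Of other host markers, muscle genes leaned higher and red cell genes lower in shHrs tumours, with 0 called. Xist, which cells of the female hosts express and the line hardly does (44 counts in 8 cultures, against 5560 in 10 tumours), stood at 31.4, 18.2, 16.1, 77.5 and 16.2 CPM in shHrs tumours, against 7.16, 37.2, 10.8, 15.0 and 39.8 CPM in shCTL tumours. A two-sided exact permutation test over 252 splits gave p = 0.444, and the groups overlapped. Skeletal muscle markers summed to 453, 529, 189, 1395 and 90.5 CPM in shHrs tumours, against 72.6, 93.1, 59.3, 129.5 and 369 CPM in shCTL tumours. Of 22 tested muscle genes 19 were positive with a median of 2.04, 0 were called, and the median without shHrs tumour 4 was 1.14. Acta1, the actin of muscle fibres, was the only one of 7 markers tested by permutation with p below 0.05 (exact p = 0.0476, 0.333 adjusted over the 7, smallest possible p 0.00794). Globins and other red cell genes summed to 28.8, 148, 126, 82.0 and 53.7 CPM in shHrs tumours, against 1864, 1523, 503, 60.1 and 808 CPM in shCTL tumours. Their median over 6 tested genes was -3.43, with 0 called. The part of host cells in the interferon, presentation and chemokine levels was not tested.

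Among the lists of the cell's own machinery, lysosomal genes were slightly higher and ribosomal protein genes slightly lower, with few calls. Of 28 tested lysosomal genes 25 were positive with a median of 0.20 (0.18 without shHrs tumour 4), and 13 passed an unadjusted p of 0.05 upward, as did 6.96% of all genes. In 5 of the 28 all shHrs tumours lay above all shCTL tumours, as in 1.91% of all genes. Asah1, the acid ceramidase, was the 1 gene called. It stood at 165, 162, 169, 152 and 196 CPM in shHrs tumours 1 to 5, against 120.3, 125, 108, 133 and 116 CPM in shCTL tumours 1 to 5. Its log2 fold change was 0.49 (SE 0.08, adjusted p = 0.0259 by edgeR), and the call was lost in 7 of the 10 fits without a tumour. The cathepsin gene Ctsl had a log2 fold change of 0.47 (adjusted p = 0.12 by edgeR).

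Of 28 genes of cholesterol and fatty acid synthesis 24 were positive, 0 were called and 5 had an unadjusted p below 0.05 upward, with a median of 0.23. Of all tested genes 51.5% were positive and 6.96% had such a p upward. Without shHrs tumour 4 all 28 genes of this list were positive, 19 had an unadjusted p below 0.05 upward, 0 were called, and the median was 0.33. Over all genes that fit had 2282 of 13291 at such a p in either direction, against 1868 of 13215 with all tumours. Of 32 ribosomal protein genes all had a negative log2 fold change, with a median of -0.22, 0 called and 13 at an unadjusted p below 0.05. Downward, 7.17% of all tested genes had such a p. Proteasome subunits had a median of 0.00 (31 genes), cell division genes -0.05 (44 genes), heat shock genes -0.11 (20 genes) and genes of hypoxia and glycolysis -0.10 (34 genes), with 0 called in each. Hspa1b is a stress-induced chaperone whose reads may be shared with Hspa1a. It stood at 20.3 to 34.1 CPM in shHrs tumours and 32.4 to 146 CPM in shCTL tumours (log2 fold change -1.15, SE 0.40, adjusted p = 0.214 by edgeR). Mki67, of dividing cells, averaged 477 ± 26.1 CPM in shHrs tumours and 492 ± 57.6 CPM in shCTL tumours (SD, n = 5 each). Hspa5, the chaperone of the endoplasmic reticulum, had a log2 fold change of 0.25 (SE 0.13), and the stress genes Ddit3, Atf3 and Chac1 had -0.02 (SE 0.28), -0.20 (SE 0.45) and -0.61 (SE 0.38). Vegfa had 0.05 (SE 0.20) and Cdkn1a 0.23 (SE 0.29).

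Sensors of foreign nucleic acid and their adaptors had a median of 0.41 over 20 genes and 0.05 without shHrs tumour 4. Of them 0 were called and 7 had an unadjusted p below 0.05 upward, as did 6.96% of all genes. Among them Ddx58, the RNA sensor RIG-I, had a log2 fold change of 1.12, and Adar, an RNA editing enzyme, 0.47. Immune checkpoint genes had a median of 0.43 over 11 genes and 0.04 without that tumour, with 0 called. Lgals9, a galectin of that list, stood at 130.4, 127, 119, 122 and 101 CPM in shHrs tumours 1 to 5, against 69.0, 88.2, 45.8, 80.9 and 73.8 CPM in shCTL tumours 1 to 5. The groups were apart, but the gene just missed the threshold (log2 fold change 0.74, SE 0.15, adjusted p = 0.0587 by edgeR). Targets of TGF-beta had a median of -0.22 over 21 genes with 0 called. Those of MAPK feedback had -0.20 over 25, and fibroblast and matrix markers -0.03 over 23 and -0.65 without shHrs tumour 4. In all, 52 of the 54 lists had tested genes, and their 917 tested genes held 9 of the 72 called genes, Hgs included. Of all 13215 tested genes, 0.545% were called.

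**Figure D4:**
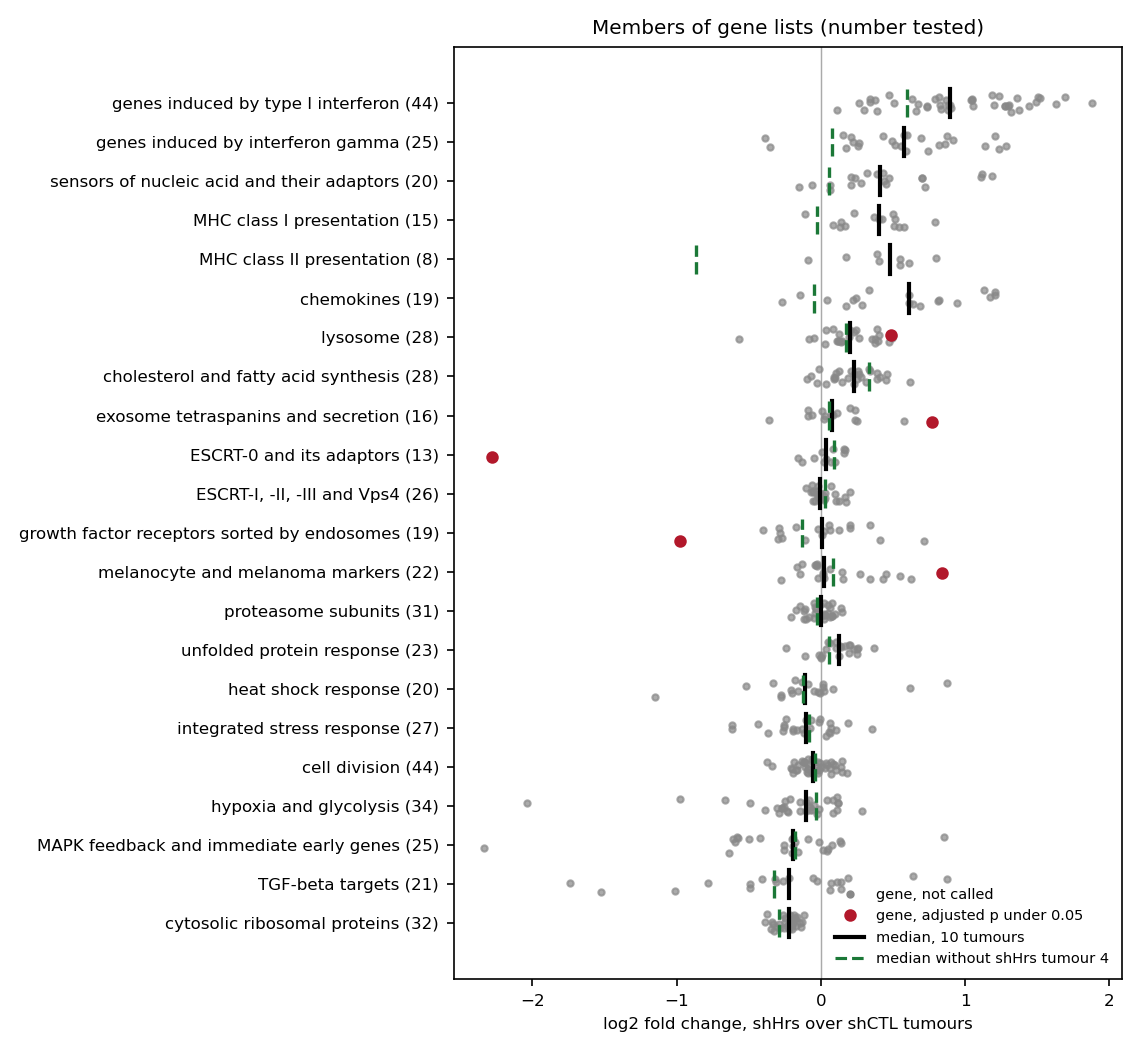
Log2 fold change of shHrs over shCTL tumours (x axis) for the tested members of 22 gene lists (rows, number tested in brackets), with called genes in red, the median in black and the median without shHrs tumour 4 as a dashed green line. The 44 type I interferon genes all lie right of 0 with no red point, the 32 ribosomal protein genes all lie left of it, and the MHC class II median moves from 0.48 to -0.87 without that tumour.

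Of 22 tested melanocyte and melanoma markers S100b was the only one called, and the median was 0.02. Mlana, a melanosome protein, stood at 1128, 1365, 962, 1686 and 1059.7 CPM in shHrs tumours 1 to 5, against 841, 893, 769.8, 938 and 805 CPM in shCTL tumours 1 to 5. The groups did not overlap, but the gene was not called (log2 fold change 0.55, SE 0.14, adjusted p = 0.117 by edgeR). Gpnmb, a glycoprotein of melanosomes and lysosomes, and Mlph, which tethers melanosomes to actin, were called without shHrs tumour 4, at 0.70 (SE 0.12) and 0.49 (SE 0.10). Tyr and Dct of melanin synthesis, Pmel of the melanosome matrix and Mitf, the lineage's master regulator, had log2 fold changes of 0.02 (SE 0.14), -0.04 (SE 0.12), 0.15 (SE 0.14) and -0.28 (SE 0.18).

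The effect in tumours was then set against that in the cultured cells, in 1 fit of 18 libraries that tested the difference of the effects. It differed for 522 of 14458 genes (3.61%), being above the culture effect for 307 (2.12%) and below it for 215 (1.49%). The lowered genes mostly shared their direction with the cultures. Of the 41 genes lower in tumours 36 were also negative in cultures, 24 of them in both batches, and the difference was called for 4. Of the 31 genes raised in tumours 11 were positive in cultures, 6 of them in both batches, and 20 were negative, 12 of them in both. The difference was called for 18 of the 31. Both sets were chosen by their tumour effect, which is part of the difference, so calls in its direction were favoured. Over all 14458 genes, 7251 were positive and 6878 negative in cultures, and 3613 were positive and 3394 negative in both batches.

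Some microtubule and actin genes were among those whose effect differed, in both directions. The actin regulator Marcksl1 differed by -0.59 (SE 0.16, adjusted p = 0.0490 by edgeR). For Map1b, Map6, Tubb2a, Vim, Phactr1, Pfn2 and Twf1 the difference was not called. L1cam averaged 15.2 CPM in shHrs tumours and 4.05 CPM in shCTL tumours. In cultures it averaged 24.9 ± 1.29 CPM with shHrs and 38.0 ± 3.30 CPM with shCTL in batch 1, and 22.4 ± 12.8 CPM with shHrs and 51.1 ± 5.91 CPM with shCTL in batch 2 (SD, n = 2 each). The culture effect was -0.90 and the difference 2.81 (SE 0.42, adjusted p = 0.00321 by edgeR). Tmod1 had a culture effect of -1.09 and a difference of 2.41 (SE 0.31), Mapre3 -0.77 and 1.74 (SE 0.27), Ndrg4 -0.69 and 1.63 (SE 0.27), and Cd9 -0.28 and 1.05 (SE 0.19). Map1a, at -0.24 in cultures, had a difference of 1.69 (SE 0.36), and Plekhb1, Cpeb1, Adamtsl5 and Asah1 had differences of 1.57, 1.51, 1.09 and 0.81. Plekhb1 and Cpeb1 were called in 16 of 24 other settings each. For Plekhb1 the difference was 2.84 with batch 1 alone (adjusted p = 0.0222 by edgeR) and 0.27 with batch 2 alone (adjusted p = 0.74), and for Cpeb1 it was 1.02 (adjusted p = 0.30) and 1.98 (adjusted p = 0.000336 by edgeR). With a single batch, Map1a was called in batch 1 and Asah1 in batch 2, and Adamtsl5 in neither. For Tmod1, Ndrg4 and Cd9 the difference was called in each of 24 other settings, including those with a single culture batch. For L1cam it was 2.51 with batch 1 alone (adjusted p = 0.0525) and 3.10 with batch 2 alone (adjusted p = 0.00124 by edgeR).

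**Figure D5:**
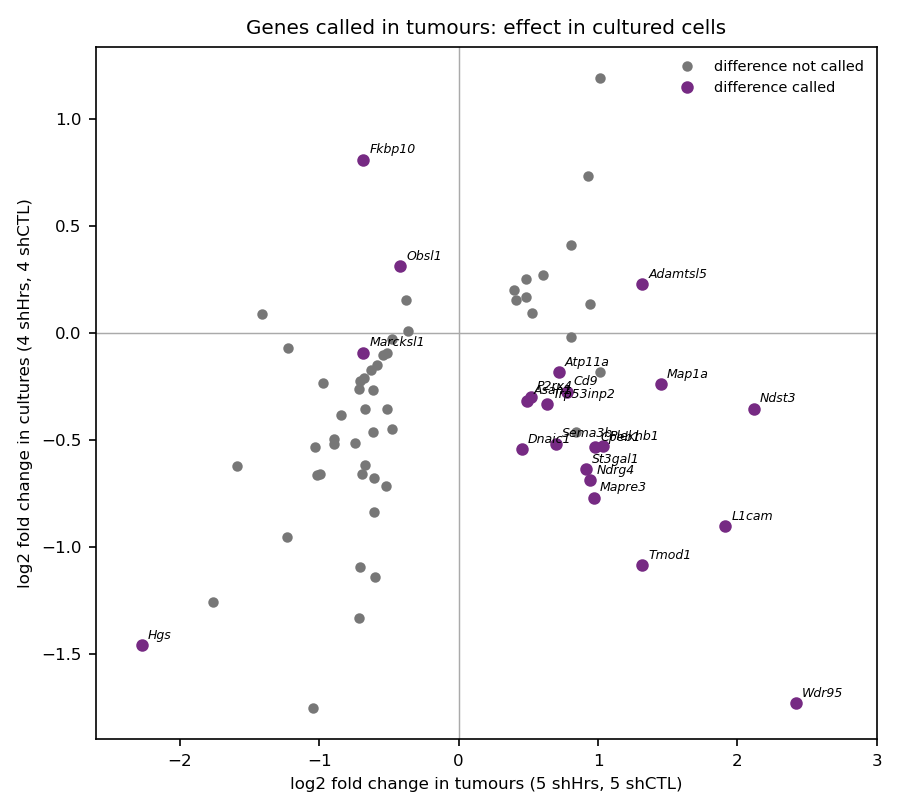
Log2 fold change in tumours (x axis, 5 shHrs and 5 shCTL) against that in cultures (y axis, 4 shHrs and 4 shCTL) for the 72 genes called in tumours, with genes whose difference was called in purple and named. Most of the 41 lowered genes lie below 0 on both axes, whereas 20 of the 31 raised genes lie below 0 in cultures.

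Hgs itself was lower by more in tumours, with a culture effect of -1.46 and a difference of -0.82 (SE 0.21, adjusted p = 0.0407 by edgeR). That difference was called in 8 of 24 other settings, and it was -0.62 with batch 1 alone (adjusted p = 0.302 by edgeR) and -1.03 with batch 2 alone (adjusted p = 0.00921 by edgeR). Over the listed genes of type I interferon the median effect was 0.90 in tumours and 2.08 in cultures. Oas1a differed by -2.28 (SE 0.52, adjusted p = 0.0258 by edgeR), at -0.70 with batch 1 alone (adjusted p = 0.661 by edgeR) and -3.87 with batch 2 alone (adjusted p = 0.000836 by edgeR). Isg15 at -2.27 (SE 0.91) and Ifit1 at -1.72 (SE 0.88) did not pass. Igf1r was at -0.23 in cultures, and its difference of -0.74 (SE 0.20) was not called (adjusted p = 0.0545 by edgeR).

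For many cell division genes the effect differed between tumours and cultures. Their median was -0.05 in tumours and -1.11 in cultures, and the difference was called for 23 of 44, against 3.61% of all genes. It was called for 37 with batch 2 alone, where 3580 of all 14362 genes were called. With batch 1 alone it was called for 0, and only 45 of all 14255 genes were. Of 20 heat shock genes, with medians of -0.11 in tumours and 0.79 in cultures, 8 differed, Hspa1b by -2.40 (SE 0.56, or -0.95 with batch 1 alone and -3.87 with batch 2 alone), and 14 did so with batch 2 alone and 0 with batch 1 alone. Beyond these lists, Angptl4, a secreted inhibitor of lipoprotein lipase, differed by -5.26 (SE 0.77), the integrin chain gene Itga3 by -4.18 (SE 0.69), the cadherin Fat2 by -2.43 (SE 0.51) and Pafah1b3 by -2.35 (SE 0.35). Upward, the hormone gene Stc1 differed by 3.63 (SE 0.58), the transcriptional regulator Aire by 2.72 (SE 0.39) and the receptor Gpr158 by 2.66 (SE 0.68). Gpr158 was at 0.19 with batch 1 alone (adjusted p = 0.967 by edgeR) and 5.11 with batch 2 alone, and was called in 8 of 24 other settings. Of these 7 genes, Pafah1b3 was called with either batch alone, and the others with batch 2 alone but not with batch 1 alone. Each of the 7 was low in some cultures. With shCTL, Angptl4 averaged 0.216 and 0.0228 CPM in batches 1 and 2, and Itga3 0.618 and 0.418 CPM. Fat2 averaged 0.291 and 0.328 CPM there, and Pafah1b3 0.511 and 0.715 CPM. With shHrs in batch 2, Stc1 averaged 0.0375 CPM, Aire 0.563 CPM and Gpr158 0.610 CPM. Their culture effects rest on few reads in those groups. Nid2, of basement membranes, differed by 3.50 (SE 0.90), but at means of 0.0239 CPM or less with shHrs and 0.193 CPM or less with shCTL in the culture batches its culture effect rests on very few reads. None of these 8 genes was called within the tumours.

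The count of differing genes leaned on the cultures. It was 45 with batch 1 alone and 3580 with batch 2 alone. Without single cultures it was 2194 (batch 1 shHrs 1), 271 and 1277 (batch 1 shCTL 1 and 2), 125 (batch 2 shHrs 2), and 173 and 217 (batch 2 shCTL 1 and 2). Without single tumours it was 224, 259, 311 and 284 for shHrs 1, 2, 3 and 5, and 265, 337, 245 and 224 for shCTL 1, 2, 3 and 4. Tumours and cultures are separate sets of libraries, so the kind of sample and any other difference between the sets cannot be told apart.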

How the data were processed

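Gene expression was measured by RNA-seq, as paired reads of 125 or 150 bases per the labels' protocols, in 10 tumours and 8 cultures. The authors deposited 1 table of raw counts per gene symbol for 18 libraries (23453 symbols), and STAR 2.4.0h2, DESeq and the build mm10 are listed, with no role for each, per the submitters' processing notes. Which tool counted the reads, on which annotation and with what strand setting, is not given in the sources used. Reads of near-identical copies (Hspa1a and Hspa1b, Tubb2a and Tubb2b, globins, Oas1 and MHC genes) may be split between them. Totals were 17.6 to 27.7 M in tumours and 18.5 to 27.6 M in cultures, and the tumours' biological coefficient of variation was 25.1%.

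Counts were fitted in R 4.3.3 with edgeR 4.0.16 (TMM, filterByExpr with a minimum count of 10, quasi-likelihood test, Benjamini-Hochberg threshold 0.05) over the 10 tumours. The difference from cultures was a contrast over 6 groups of 18 libraries. Mean log2 CPM used a pseudocount of 2. Alternatives used limma 3.58.1, DESeq2 1.42.0, other scalings and filters, and the leaving out of single libraries. The steps were tested on simulated data. The genes named were the 12 of largest fold change in each direction among called genes without overlap between groups and at mean log2 CPM 1 or above (predicted genes left out), up to 4 genes by smallest p of each list with a called member, 44 genes followed whatever their result (some are not reported here), and the 5 largest differences in each direction. Others are said to be picked after their values were seen. Gene positions are from GENCODE M21, and promoters from RefSeq. No 2 replicates agreed within counting noise (chi-square per degree of freedom 14.5 to 128). The members and lists were chosen with earlier results of these data known.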

Additional observations from a re-analysis of the deposited data

Results flagged for a closer look

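Single tumours stood apart from the rest of their group in 24 of 162 groups of values examined. The gap was wider than Dixon's 95% limit (0.71 of the range for 5 samples). Independent, normally distributed values would pass it in about 1 in 20 groups. These were CPM values without a log, and some marker sums held genes also examined singly, so that rate is no fair base here. Most of the tumours that stood apart were shHrs tumour 4. It was high for the leukocyte gene Ptprc (30.99 CPM), the T cell gene Cd3e (3.477 CPM), the granzyme Gzmb (5.983 CPM), the macrophage receptor Csf1r (48.94 CPM), the MHC class II gene H2-Ab1 (230.8 CPM), Xist (77.52 CPM), Irf7 (98.95 CPM) and the chemokines Cxcl9 (74.5 CPM) and Cxcl10 (205.1 CPM). Its summed markers were also high for T cells (128.2 CPM), cytotoxic genes (68.42 CPM), macrophages (3168 CPM), dendritic cells (755.5 CPM) and adipocytes (227.2 CPM). Among called genes the same tumour was low for Igf1r (15.95 CPM) and high for Adamtsl5 (33.34 CPM).

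Other tumours stood apart less often. ShHrs tumour 1 was high for L1cam (18.25 CPM) and low for S100b (133.5 CPM), and shHrs tumour 3 was low for Cd9 (96.39 CPM). ShCTL tumour 1 was high for the stress genes Hspa1b (146 CPM), Chac1 (92.12 CPM) and Atf3 (83.42 CPM). ShCTL tumour 3 was low for Ndrg4 (6.995 CPM), and shCTL tumour 5 had the most muscle marker signal of its group (368.5 CPM). No cause of these values was tested.

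The effect of shHrs differed between tumours and cultures by a direct test (edgeR, adjusted p below 0.05) for 21 named genes. Over all genes it differed for 522 of 14458 (3.61%). Many of the 21 were named because their difference or their tumour effect was among the largest, so this count follows partly from the naming. On the log2 scale as tumours minus cultures, Tmod1 at 2.406, L1cam at 2.814, Mapre3 at 1.739 and Map1a at 1.692 lay above 0. So did Ndrg4 at 1.634, Plekhb1 at 1.568, Cpeb1 at 1.51, Adamtsl5 at 1.092, Cd9 at 1.053 and Asah1 at 0.8097. Further genes above 0 were Stc1 at 3.629, Nid2 at 3.501, Aire at 2.721 and Gpr158 at 2.658. Below 0 lay Angptl4 at -5.257, Itga3 at -4.184, Fat2 at -2.434, Hspa1b at -2.396, Pafah1b3 at -2.353, Oas1a at -2.277 and Hgs at -0.8153.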

How the results depend on the processing

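Hgs was called in every setting tried, between -2.19 and -2.45. The 72 genes kept their sign wherever they were tested, which their lack of overlap between groups made nearly certain. The count of calls moved. DESeq2 called 521 genes (273 higher, 248 lower), a filter of 5 CPM in 5 tumours 110 (49 higher), and all 18 libraries in 1 fit 29 (12 higher, 17 lower). With shHrs tumour 4 and shCTL tumour 5 left out together, chosen after seeing the data, 57 were higher. Other scaling (74), limma voom (78), no filter (67) and robust shrinkage (81) stayed within 1.5 times. The share of calls that were higher was 43.1%, against 52.4% with DESeq2, 55.3% without that pair, 54.0% without shHrs tumour 5 and 53.5% without shCTL tumour 1. Leaving out each tumour gave 32 to 158 genes (14 to 79 higher, 18 to 79 lower). The replicate block gave 2 genes, 0 higher and 2 lower (Hgs and Igf1r). Same-numbered tumours correlated at -0.63 to 0.44 in their deviations and others at -0.56 to 0.64, so the numbers gave no pairing. The difference from cultures was called for 1395 genes by DESeq2, 45 with culture batch 1 alone, 3580 with batch 2 alone, and 125 to 2194 without single libraries. The cause of these shifts was not tested.

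Uncalled genes near 0 or rich in host signal changed sign when a tumour was left out, with ranges of -0.40 to 0.56 for Atf3, -0.31 to 1.19 for Cd3e, -0.16 to 0.86 for Csf1r, -0.61 to 0.74 for Cxcl9, -0.12 to 0.0431 for Dct, -0.23 to 0.29 for Ddit3, -0.16 to 0.58 for Emr1 and -0.0524 to 0.27 for Fat2. They were -0.48 to 1.39 for Gzmb, -0.97 to 1.07 for H2-Ab1, -0.18 to 0.37 for H2-K1, -0.0763 to 0.0240 for Mki67, -0.0901 to 0.12 for Nid2, -0.0296 to 0.0569 for Sox10, -0.0493 to 0.12 for Stam2, -0.0679 to 0.10 for Tyr, -0.0714 to 0.17 for Vegfa and -0.10 to 0.855 for Xist. The marker levels ran from -0.0544 to 0.28 for Cd3e and -0.71 to 0.16 for Col1a1. With voom Atf3 had 0.0845, Ddit3 0.0373, Stam2 -0.0134 and Tyr -0.000328, and with the replicate block they had 0.14, 0.0330, -0.0113 and -0.000236. Without the pair, Cd3e had -0.34, Cxcl9 -0.66, Dct 0.0113, Ddit3 0.0282, Gzmb -0.12, H2-Ab1 -0.83, H2-K1 -0.17 and Sox10 -0.00787. Of the values for single genes, lists and markers, 3601 were rated the same, 230 lost the call and 4 gained it. A further 58 changed sign, and 79 list values moved. A single gene or marker rated the same kept its direction and call. A list median was rated the same if it shifted by less than the spread between tumours, whatever its sign. A list count was rated the same within 1.5 times. Of the T cell and interferon genes, Cd8a, Ifng and Ifnb1 had too few counts to test.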
